A study of Arabidopsis thaliana with 8 samples.

Results

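The large, 60S subunit of the cytosolic ribosome was examined through the genes for its proteins in embryos of Arabidopsis thaliana. These genes were chosen as every locus whose array description contains "60S ribosomal" or "60S acidic ribosomal", in any case. The rule found 147 of the 24648 loci on the array. Of these, 146 were tested at each of 2 stages. The other one, RPL13C (AT3G48960), did not exceed the blank spots at 3 d and had 1 value at 6 d. A description named a particular 60S protein for 139 loci, and these fell into 48 proteins, each with at least 2 tested gene copies. The other 8 loci were described as related or weakly similar to a 60S protein.

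Embryos of the cross of M0191 as the female with bdl as the male, called the bdl cross here, were set against embryos of M0171 as the female with Col-0 as the male, called the Col-0 cross. Both were in the Col-0 ecotype, and they were isolated at 6 d and at 3 d after pollination. Each of the 4 arrays of a stage carried both crosses in different dyes. Per the labels, replicates 1 and 2 had the bdl cross in Cy5, and replicates 3 and 4 had it in Cy3. The replicates were biological per the labels. The crosses differ in both parents, so the part of the female line and that of bdl cannot be told apart. The labels do not say what M0191 and M0171 carry or where bdl acts. bdl is known as a stabilised form of BODENLOS (IAA12), an Aux/IAA repressor of auxin responses in the embryo. In bulk embryo RNA, fewer cells of a type and less RNA per cell cannot be told apart. The 6 d ratios were deposited without signals, and their direction is taken to be that of the 3 d ratios.

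The 60S subunit joins ribosomal RNA to one copy of most of its proteins and to a flexible stalk of acidic P proteins that recruits translation factors. It carries the peptidyl transferase centre, in which peptide bonds are made. In plants each protein is encoded by several gene copies, and mutants in single copies of several of them have pointed leaves, altered auxin responses or arrested embryos. Messenger RNAs for ribosomal proteins are among the most abundant of growing plant tissue, and their numbering runs roughly from large proteins to small ones. No probe, promoter or protein sequence was used here.

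Markers of other seed tissues differed between the crosses (limma, adjusted p under 0.05). At 6 d, of 6 endosperm markers 4 were higher and 0 lower, with a median of 1.75, and of 6 seed coat markers 4 were higher and 0 lower, with a median of 1.2. At 3 d 1 of 5 endosperm markers and 1 of 6 seed coat markers were higher. Of all genes, 26.7% were higher and 26.7% lower at 6 d, and 7.01% were higher and 6.1% lower at 3 d. The summed 3 d signal of the endosperm markers was 10520 to 14588 in the bdl cross and 5861 to 7250 in the Col-0 cross. MPC (AT3G19350) alone gave 6853 to 12621 of it in the bdl cross and 2764 to 5770 in the Col-0 cross. It was the 1 endosperm marker called at 3 d, and it was not called at 6 d. The summed signal of the seed coat markers was 86041 to 180168 in the bdl cross and 54326 to 125929 in the Col-0 cross. One endosperm gene in the bdl cross and one seed coat gene in the Col-0 cross exceeded the blank spots on no array. All 10 embryo markers were above the blank spots on all 4 arrays of 3 d in both crosses. Of these, 3 of 9 were higher and 3 lower at 6 d, and 6 of 10 were higher and 2 lower at 3 d. The part of these tissues in the 60S results was not tested.

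At 6 d the 60S genes moved in both directions, and the direction went with the protein. Genes for the small proteins L30 to L41 were mostly higher in the bdl cross, and several genes for larger proteins, such as L3 and L13a, were lower. Of the 146 genes, 62 were higher and 25 lower at an adjusted p under 0.05 (limma with a dye term, Benjamini-Hochberg adjustment over all genes tested). The same rule called 26.7% of all 19972 genes higher and 26.7% lower, 53.4% in all. The median log2 ratio (bdl cross over Col-0 cross throughout) was 0.32 for the 60S genes, against -0.02 for all genes. The single ratios ran between -1.78 and 3.15, and 38 genes lay at or above 1 while 8 lay at or below -1. On the 4 arrays the median of the 60S genes was 0.40, 0.23, 0.26 and 0.43. Of the 60S genes, 71 were above 0 on all 4 arrays and 36 below 0 on all 4, where 35.6% and 36.9% of all genes were so.

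The genes for L30 to L41 (40 genes of 14 proteins) had a median log2 ratio of 1.35 at 6 d, with 34 higher and 2 lower. Their median was between 1.32 and 1.38 on each of the 4 arrays. The 27 genes for L21 to L29 had a median of 0.32, with 11 higher and 5 lower. The 35 genes for L10 to L19 had a median of -0.15, with 5 higher and 7 lower, and the 22 genes for L3 to L9 one of -0.27, with 2 higher and 7 lower. Of all genes, 26.7% were higher and 26.7% lower. The lower calls of L3 to L9 and of L10 to L19 were near that share, and their higher calls were under it. Across 124 genes the rank correlation of the 6 d ratio with the protein's number was 0.70, and across the medians of 44 proteins it was 0.84. These genes share the same 4 arrays, and the classes were formed after the values had been seen. At 3 d the same rank correlation across genes was -0.14, and no class median left the range from -0.46 to -0.31. Across 96 genes for 40S proteins, numbered in the same way, it was 0.62 at 6 d and -0.02 across 95 genes at 3 d.

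**Figure D1:**
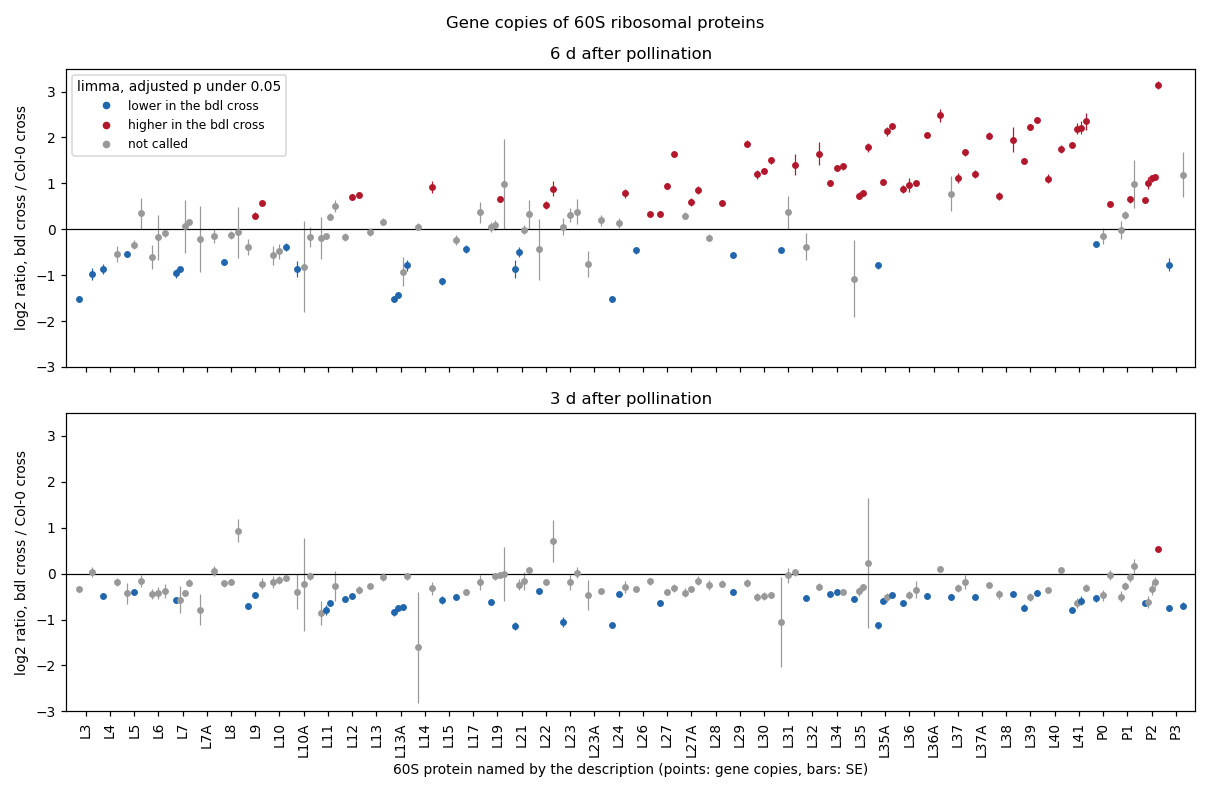
Log2 ratio (bdl cross over Col-0 cross) for tested genes of named 60S proteins other than 2 that are not reported singly, at 6 d above and 3 d below. Points are gene copies with their standard error, set along the axis by protein number and then P0 to P3, and coloured by the limma call. At 6 d the points climb with protein number, with a median of 1.35 for L30 to L41, while at 3 d nearly all lie a little below 0.

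Gene span moved with this pattern. In the RefSeq gene table (assembly TAIR10.1, used for names and spans because the files name no build) the median span, introns included, was 1331.5 bases for L30 to L41 and 1938.5 bases for L3 to L9. Across all 19839 genes with a span the rank correlation of the 6 d ratio with span was -0.25, against -0.41 across the 146 60S genes. At 3 d it was -0.00445 across all genes and -0.000351 across the 60S genes. The 55 60S genes with spans over 1300 and up to 1700 bases had a median 6 d ratio of 0.32, against 0.41 for all 2358 genes of that span. The 14 with spans up to 800 bases had a median of 1.57, against 0.42 for all 1043 genes of that span. With each array's trend over span taken out, an alternative chosen after seeing the data, the median of the 60S genes became -0.05, with 46 higher and 37 lower. The median of L30 to L41 was then 1.01, with 31 of 40 higher, and the rank correlation with protein number was 0.64. The part of transcript length, probe position or RNA amplification in the 6 d pattern was not tested.

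**Figure D2:**
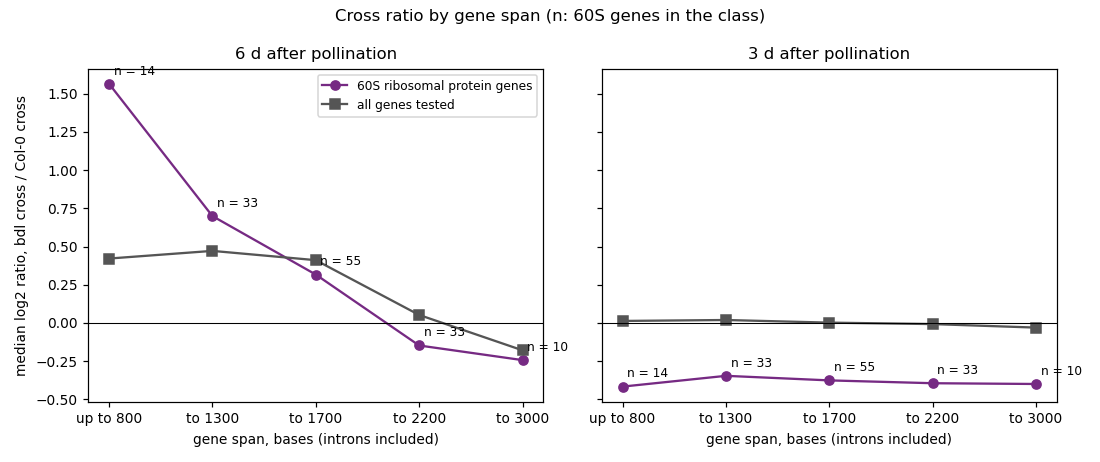
Median log2 ratio (bdl cross over Col-0 cross) by class of gene span, for 60S genes (circles, with their number in each class) and for all genes tested (squares), at 6 d on the left and 3 d on the right. At 6 d the 60S line falls with span, between 1.57 and -0.24. The 6 d line of all genes stays at 0.42, 0.47 and 0.41 up to 1700 bases and then falls to -0.18. At 3 d both are level. The single 60S gene over 3000 bases is not drawn.

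The highest 6 d ratios among the small proteins belonged to L36a, L39, L41 and L35a. RPL36aB (AT4G14320) had log2 ratios of 2.33, 2.47, 2.89 and 2.23 on the 4 arrays, a 5.58-fold higher level in the bdl cross (log2 2.48 ± 0.15, SE; limma adjusted p = 0.0032). RPL39C (AT4G31985) read 2.41, 2.50, 2.28 and 2.37, a 5.24-fold rise. RPL41G (AT3G56020) read 2.63, 2.44, 1.74 and 2.59, a 5.09-fold rise. Every array lay well above 0 for these genes. L39 and L41 are among the smallest proteins of the eukaryotic ribosome, and L36a, L39 and L41 rose in each of their 9 gene copies, between 1.49 and 2.48. RPL35aC (AT1G74270) was 4.72-fold higher, with ratios of 2.17, 2.26, 2.23 and 2.29, and RPL39B (AT3G02190) was 4.70-fold higher.

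Among the genes lower at 6 d, those for L13a and L3 stood out. RPL13aD (AT5G48760) read -1.48, -1.54, -1.48 and -1.60, a 2.88-fold lower level in the bdl cross (log2 -1.53 ± 0.06, SE; limma adjusted p = 0.0026). RPL13aA (AT3G07110) read -1.48, -1.46, -1.32 and -1.49, and was 2.71-fold lower. RPL3B (AT1G61580) was 2.85-fold lower and RPL3A (AT1G43170) 1.97-fold lower. L3 lies at the peptidyl transferase centre, and both of its genes fell. RPL15A (AT4G16720) fell 2.19-fold. Somewhat smaller falls were called for other ribosomal proteins too, such as RPL4D (AT5G02870), which was 1.83-fold lower. The remaining falls listed here for their size were outside the ribosomal proteins proper. AT2G44860 is described as a putative L24 and resembles the yeast 60S assembly factor Rlp24. It read -1.48, -1.53, -1.46 and -1.59, a 2.86-fold lower level. AT3G58660, with weak similarity to L10a, was 3.44-fold lower.

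At 3 d the 60S genes shifted together by a small amount. Of 146 genes, 131 (89.7%) had a log2 ratio below 0, 47 were lower in the bdl cross and 1 was higher (limma adjusted p under 0.05, dye term). The same rule called 6.1% of all 19218 genes lower and 7.01% higher. The median log2 ratio was -0.39, or 0.764 of the level of the Col-0 cross, against -0.01 for all genes. The medians on the 4 arrays were -0.40, -0.39, -0.41 and -0.32. Of the 140 genes with values on all 4 arrays, 94 were below 0 on every array and 2 above 0 on every array, where 26.9% and 26.8% of all genes were so. The interquartile range between genes was 1.34 log2 units at 6 d and 0.349 at 3 d. When any 1 array was dropped, limma with the dye term called 0 of the 60S genes, and the median stayed between -0.40 and -0.37 in those fits and in the ones without a dye term. The count of lower genes also moved with the filter and the spread model, between 26 without a filter on dim probes and 84 with a spread that follows intensity.

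**Figure D3:**
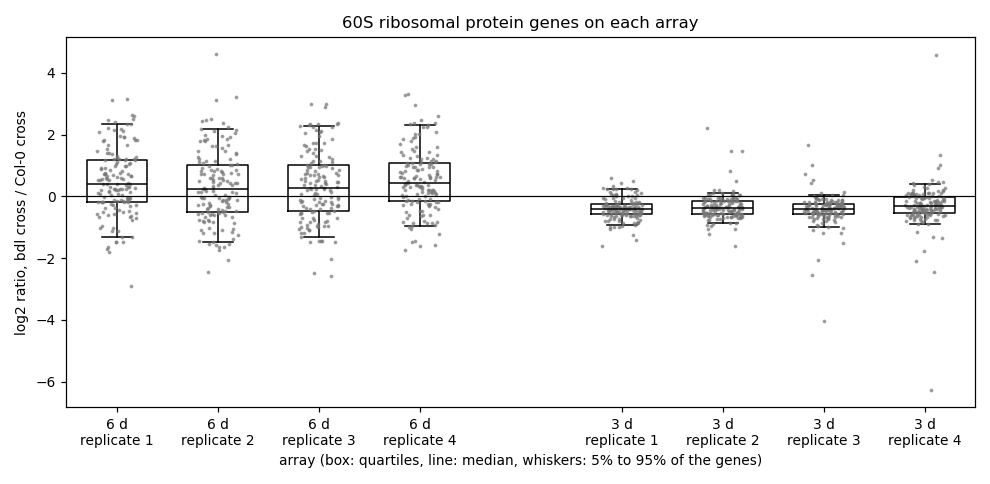
Log2 ratio (bdl cross over Col-0 cross) of each 60S gene on each of the 8 arrays, at 6 d on the left and 3 d on the right. Points are genes, boxes the quartiles and whiskers the range from 5% to 95%. At 6 d the medians sit between 0.23 and 0.43 with wide boxes, and at 3 d between -0.41 and -0.32 with narrow ones.

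The brightest 60S probes at 3 d ran into a ceiling of the signal. On each array the geometric mean of the 2 channels had its highest value between 65226 and 65306, and between 39 and 82 spots lay within 1% of it. At least 1 array had this for 30 of the 147 60S genes, and 5 genes, with RPP1A, RPL21C, RPL3A and RPL40B among them, had it on all 4 arrays. The 30 genes had a median 3 d ratio of -0.13, with 0 called, and the other 116 had one of -0.44, with 47 lower and 1 higher. At 6 d their medians were -0.09 and 0.45. The 6 d ratios came without signals, so whether these probes also reached a ceiling at 6 d could not be checked. For a spot at the ceiling in both channels the 3 d ratio cannot show a difference between the crosses.

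Among genes with values on all 4 arrays, the largest called falls at 3 d were those of RPL35aD, AT2G44860 and RPL23B. RPL21E (AT1G57660), with 3 values, was called at -1.13 as well. RPL35aD (AT3G55750) had signals of 303, 613, 374 and 379 in the bdl cross, against 604, 1204, 846 and 974 in the Col-0 cross. Each array put the bdl cross at about the same lower level, 2.18-fold down (log2 -1.13 ± 0.07, SE; limma adjusted p = 0.029). AT2G44860 had signals of 361, 1184, 902 and 825 in the bdl cross, against 856, 2464, 1814 and 1851 in the Col-0 cross, and was 2.17-fold lower. RPL23B (AT2G33370) had 28453, 19176, 8497 and 17660 in the bdl cross, against 59715, 35416, 16126 and 44539 in the Col-0 cross. It was 2.08-fold lower, and the crosses overlapped across arrays but never within one. Signals of one gene differed several-fold between arrays of one cross, so each ratio is read within its array. The other large called falls were those of AT3G58660 (1.86-fold), RPL13aA (1.79-fold), RPL41E (AT3G11120, 1.74-fold), RPL11D (AT5G45775, 1.73-fold) and RPL13aD (1.68-fold).

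The acidic stalk held the 1 gene that was called higher at both stages. P0 anchors the stalk, pairs of P1 and P2 are bound to it, and P3 is a plant form of these small acidic proteins. Of 14 stalk genes, 7 were higher and 2 lower at 6 d, where 53.4% of all genes were called. At 3 d 1 was higher and 4 lower, where 13.1% of all genes were called. RPP2C (AT3G28500), one of 5 genes for P2, had log2 ratios of 3.12, 3.20, 2.99 and 3.28 at 6 d, the highest 60S value of that stage, and was 8.85-fold higher in the bdl cross (log2 3.15 ± 0.08, SE; limma adjusted p = 0.0026). At 3 d its signals were 3912, 11796, 5143 and 16983 in the bdl cross, against 2568, 8332, 3533 and 11896 in the Col-0 cross. The bdl cross was higher on each array, by 1.46-fold (log2 0.54 ± 0.06, SE; limma adjusted p = 0.036). RPP2C was the 1 called rise among the 60S genes at 3 d.

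The other P2 genes rose at 6 d by less. RPP2D (AT3G44590) was 2.20-fold higher, RPP2B (AT2G27710) 2.15-fold, RPP2A (AT2G27720) 2.01-fold and RPP2E (AT5G40040) 1.54-fold. The other probes of RPP2B averaged log2 ratios of 0.53, 0.46 and 0.42 at 6 d, against 1.11 for its brightest probe. Those of RPP2D averaged 0.66 and 0.54, against 1.14. At 3 d RPP2D was 1.55-fold lower, and RPP2A, RPP2B and RPP2E were not called, at log2 ratios of -0.19, -0.61 and -0.33. Among genes for P1, RPP1C (AT5G47700) was 1.58-fold higher at 6 d, and AT5G24510 was not called, at 0.32. RPP1B (AT4G00810) read 1.82, 1.46, -0.96 and 1.60 and was not called. Without replicate 3 it was called, at 1.62 (limma adjusted p = 0.023). RPP1A (AT1G01100) was not called either, at -0.01 from its brightest probe, which was at the ceiling at 3 d. Its other probes averaged 1.75 and 2.15 at 6 d, and the mean over its probes was 1.47 and called (limma adjusted p = 0.011).

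The genes for P0 and P3 were split between copies. RPP0A (AT2G40010) was 1.47-fold higher at 6 d and RPP0C (AT3G11250) 1.26-fold lower, while RPP0B (AT3G09200) was not called, at -0.15. RPP3B (AT5G57290) read -0.97, -0.49, -1.0 and -0.62 at 6 d and was 1.71-fold lower. RPP3A (AT4G25890) read 1.96, 1.79, 1.71 and -0.71. It was not called with all arrays (log2 1.19 ± 0.49, SE; limma adjusted p = 0.13), and was called at 1.79 without replicate 4 (limma adjusted p = 0.019) and at 0.58 without replicate 3 (limma adjusted p = 0.046). At 3 d both P3 genes were lower. RPP3A had signals of 5256, 3557, 3245 and 4398 in the bdl cross, against 8807, 5806, 5460 and 7655 in the Col-0 cross, a 1.68-fold fall. RPP3B had 3069, 5514, 6246 and 9185 in the bdl cross, against 4993, 9992, 10345 and 13224 in the Col-0 cross, a 1.63-fold fall.

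**Figure D4:**
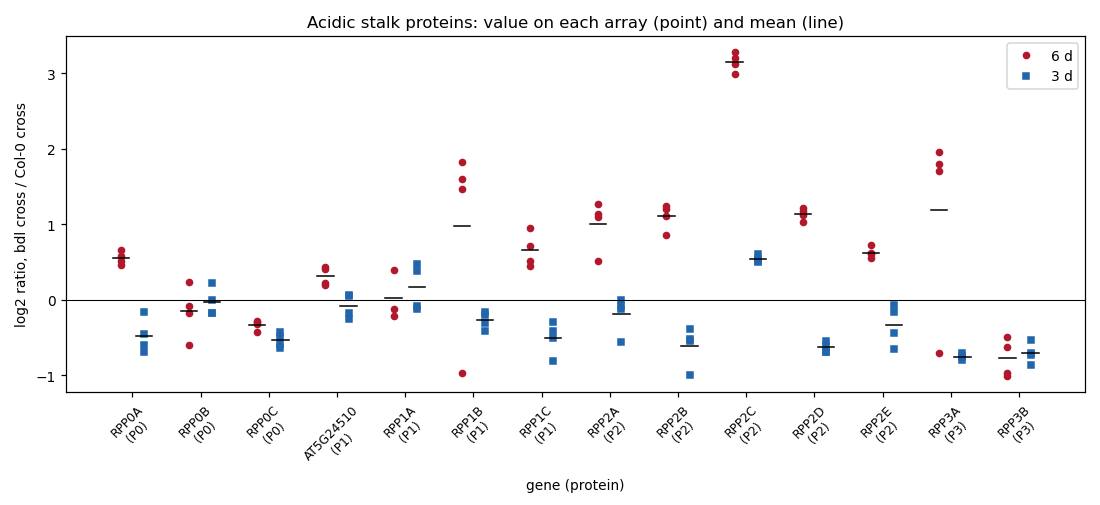
Log2 ratio (bdl cross over Col-0 cross) on each array for the 14 stalk genes, with 6 d as circles on the left and 3 d as squares on the right of each gene; lines are means. RPP2C lies above 0 on all 8 arrays, and RPP1B and RPP3A each have 1 array at 6 d, at -0.96 and -0.71, far from the other 3.

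Gene copies of one protein lay farther apart at 6 d than at 3 d, and the ratios of all genes also spread wider at 6 d. Their SD over all genes was 1.12 at 6 d and 0.61 at 3 d. No test set the distances between copies against this spread. Differences within proteins made up 30.8% of the sum of squares of the ratios at 6 d and 64.2% at 3 d, where 65.7% of the degrees of freedom lie within proteins. All copies of a protein were on one side of 0 for 25 of the 48 proteins at 6 d, 16 above and 9 below. At 3 d this was so for 35, all of them below 0. The median distance between 2 copies, over 119 pairs with values on all 8 arrays, was 0.53 log2 units at 6 d and 0.20 at 3 d. It was 1 or more in 24 pairs at 6 d and in 6 pairs at 3 d. The difference kept its sign over the 4 arrays of a stage in 74 pairs at 6 d and in 58 at 3 d.

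Copies grouped by description were called in opposite directions at 6 d for 6 proteins, L24, L26, L29, L31, L35a and P0. For L24 the lower locus was AT2G44860, the putative L24 that resembles an assembly factor. RPL24B was higher and RPL24A was not called, at 0.14. L35a, one of the small proteins, gave the widest split. RPL35aA (AT1G07070) and RPL35aC were 4.37-fold and 4.72-fold higher in the bdl cross, and RPL35aD was 1.72-fold lower. The difference between RPL35aC and RPL35aD was 2.73, 3.05, 3.13 and 3.17 on the 4 arrays of 6 d, and 0.53, 0.39, 0.70 and 1.04 on those of 3 d. Over all 8 arrays it passed the threshold (exact 2-sided sign-flip permutation test, p = 0.0078, the smallest that 8 arrays allow, adjusted p = 0.039 over 119 pairs). RPL29A (AT3G06700) read 1.87 and RPL29B (AT3G06680) -0.57 at 6 d. RPL29B minus RPL29A was -2.31, -2.51, -2.45 and -2.46 on the arrays of 6 d and 0.02, 0.25, 0.32 and 0.18 on those of 3 d. Because the sign turned between stages, the test over 8 arrays did not pass (exact permutation p = 0.125), and within 1 stage 4 arrays cannot give a p below 0.125. For L32, RPL32A (AT4G18100) lay above RPL32B (AT5G46430) by 1.48, 2.03, 1.56 and 3.03 at 6 d, while the difference averaged -0.25 at 3 d. The RPL32B ratio was a mean over 13 spots at 3 d but came from 1 spot at 6 d. That spot read 0.62, -0.76, -0.42 and -0.94, while the other probes of RPL32B averaged -0.29 and -0.33 at 6 d.

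Among P2 genes, RPP2C differed from each of RPP2A, RPP2B, RPP2D and RPP2E by 2.01 to 2.52 log2 units at 6 d and by 0.73 to 1.17 at 3 d. Each of these 4 differences held one sign on all 8 arrays (exact permutation adjusted p = 0.039). By contrast, RPP2B and RPP2D differed by -0.03 at 6 d (SD 0.23, n = 4) and 0.02 at 3 d (SD 0.33, n = 4). These P2 differences use the brightest probe of each gene, and the other probes of RPP2B and RPP2D averaged lower at 6 d. On replicate 4 of 3 d RPP2A was near the blank level, at 36.5 in the bdl cross and 53.8 in the Col-0 cross. The 95th percentiles of the blank spots there were 81 and 47. RPP2A minus RPP2C was -1.07 on that array, its widest at 3 d. In the L24 family, AT2G44860 minus RPL24B (AT3G53020) averaged -2.30 at 6 d and -0.82 at 3 d and was below 0 on all 8 arrays, although RPL24B was at the signal ceiling on 1 array of 3 d. At 3 d, RPL23B minus RPL23C was -0.76, -1.10, -1.05 and -1.38, and RPL23A (AT1G04480) minus RPL23B was 0.80, 0.95, 0.31 and 1.41, although RPL23C was at the signal ceiling on 3 of 4 arrays and RPL23A on 1. The wide 3 d distances between RPL14A (AT2G20450) and RPL14B (AT4G27090), and between RPL31A (AT2G19740) and either RPL31B (AT4G26230) or RPL31C (AT5G56710), came with large spread. Their SDs over the 4 arrays were 2.78, 1.93 and 2.19, and 1 array carried most of each.

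Other copies read close values. RPL41C (AT2G40205) and RPL41D (AT3G08520) differed by -0.03 at 6 d (SD 0.14, n = 4). RPL34A (AT1G26880) and RPL34B (AT1G69620), and RPL38A (AT2G43460) and RPL38B (AT3G59540), differed by -0.36 (SD 0.12, n = 4) and 1.23 (SD 0.50, n = 4) at 6 d, but by 0.014 and 0.016 at 3 d. Of the 119 pairs, 24 passed over 8 arrays after adjustment and 39 did so unadjusted. Probes of nearly identical copies may share target RNA, which these files do not show.

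Most 60S genes read higher ratios at 6 d than at 3 d. The 6 d ratio was higher than the 3 d ratio for 77 of 146 genes and lower for 13 (limma over 8 arrays with a shared dye term, adjusted p under 0.05), where 24.8% of all 18247 genes were higher and 21.5% lower. The median difference was 0.66 for the 60S genes and 0.02 for all genes. With the span trend taken out it was 0.42, with 67 higher and 22 lower. Of the 47 genes lower at 3 d, 26 were higher at 6 d, 11 were lower again and 10 were not called. Of the 98 not called at 3 d, 35 were higher at 6 d, 14 lower and 49 not called. At 6 d 26.7% of all genes were higher and 26.7% lower. The lower counts of both splits were near or under that share. The split by 3 d call was not counted over all genes. RPL41G had the largest difference among named 60S proteins, with 2.35 at 6 d and -0.64 at 3 d. RPL39C read 2.39 at 6 d and -0.51 at 3 d, RPL41C 2.18 and -0.59, and RPL35aC 2.24 and -0.46. RPL3A, RPL3B, RPL13aA and RPL13aD had lower ratios at 6 d than at 3 d, for example RPL3B at -1.51 at 6 d and -0.32 at 3 d.

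**Figure D5:**
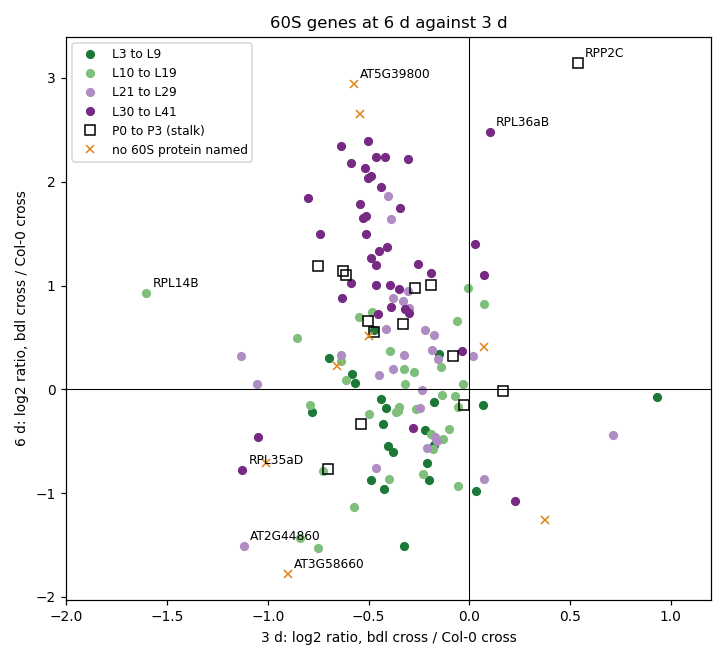
Each tested 60S gene by its log2 ratio (bdl cross over Col-0 cross) at 6 d (upright axis) and 3 d (level axis), coloured by class of protein number, with stalk genes as open squares and loci with no named 60S protein as crosses. Of 146 genes, 82 were above 0 at 6 d and below 0 at 3 d, 49 were below 0 at both and 7, with RPP2C among them, above 0 at both.

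Of 18 genes with known developmental mutants, 2 were higher and 5 lower at 6 d, where 26.7% of all genes were higher and 26.7% lower. The share of lower genes was thus near that of all genes. At 3 d 0 were higher and 4 lower, where 7.01% of all genes were higher and 6.1% lower. RPL24B, known as STV1 and needed to translate auxin response factor messages with upstream reading frames, was 1.72-fold higher at 6 d and was not called at 3 d, at -0.30. RPL24B was at the signal ceiling on 1 array of 3 d. Its copy RPL24A (AT2G36620) was not called at 6 d, at 0.14, and was 1.37-fold lower at 3 d. RPL5B (AT5G39740), known as OLI7, was 1.46-fold lower at 6 d and 1.32-fold lower at 3 d. Its ratios lay between -0.65 and -0.47 at 6 d and between -0.42 and -0.38 at 3 d. L5 carries the 5S ribosomal RNA into the subunit. Its other copy ATL5 (AT3G25520), known as PGY3, read -0.51, -1.58, 2.36 and 1.11 at 6 d and was not called. RPL4D (AT5G02870) was 1.83-fold lower at 6 d and 1.40-fold lower at 3 d.

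RPL8A (AT2G18020), needed for embryo development, was 1.64-fold lower at 6 d, and RPL28A (AT2G19730) was 1.48-fold higher. Neither was called at 3 d, at -0.21 and -0.22. RPL3A and AT2G44860, also of this group, are given above. RPL10aB (AT2G27530), known as PGY1, was measured near the blank level, with a mean signal of 30.8, and its ratios ranged between -2.45 and 1.66 at 3 d. RPL90A/C (AT1G33140, a gene for L9 known as PGY2), RPL4A (AT3G09630), RPL10A (AT1G14320), RPL19A (AT1G02780) and RPL23C (AT3G04400) were not called at either stage, and each was at the signal ceiling on at least 1 array of 3 d. RPL23aA (AT2G39460), RPL23aB (AT3G55280) and RPL27aC (AT1G70600) were not called at either stage.

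The 8 loci without a named 60S protein held some of the largest changes. AT5G39800 and AT5G40080, both with weak similarity to a yeast mitochondrial ribosomal protein, were 7.67-fold and 6.28-fold higher at 6 d and 1.49-fold and 1.46-fold lower at 3 d. AT5G39800 read 3.17, 3.13, 2.98 and 2.47 on the 4 arrays of 6 d. AT3G58660, AT1G06380 and AT2G42650 have weak similarity to L10a. They had ratios of -1.78, 0.52 and -0.71 at 6 d and -0.90, -0.50 and -1.01 at 3 d, of which those of AT2G42650 were not called. AT1G25260, related to P0 and similar to the yeast assembly factor Mrt4, was not called at 6 d, at 0.23, and was 1.58-fold lower at 3 d. AT3G49460, weakly similar to P1, was 2.40-fold lower at 6 d. AT4G14250, described as a UBX domain protein with low similarity to L2, was not called at either stage. Without these 8 loci, 59 genes were higher and 23 lower at 6 d, and 1 higher and 42 lower at 3 d.

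Genes for 40S proteins, from the small subunit, gave similar shares. Of 99 tested at 6 d, 49 were higher and 12 lower, with a median of 0.43. Of 98 tested at 3 d, 0 were higher and 26 lower, with a median of -0.33. Of 37 genes for ribosomal proteins of plastids and mitochondria, 14 were higher and 8 lower at 6 d, and 0 were higher and 4 lower at 3 d. Their medians were 0.24 and -0.17. A 6 d rise was thus called for 37.8% of these organelle genes and a 6 d fall for 21.6%. Each direction took 26.7% of all genes. The 3 d falls made up 10.8% of the organelle genes, against 6.1% of all genes. Whether the organelle genes differed from all genes was not tested.

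Factors that assemble the 60S subunit were mostly lower at both stages or not called. Of 27 tested at 6 d, 3 were higher and 19 lower, with a median of -0.84, and at 3 d 0 of 26 were higher and 12 lower, with a median of -0.50. Among all genes, 26.7% were higher and 26.7% lower at 6 d, and 7.01% were higher and 6.1% lower at 3 d. NUC-L1 (AT1G48920), a nucleolin that acts on ribosomal RNA genes, was 3.27-fold lower at 6 d. AT1G52930, a homologue of the yeast assembly factor Brx1, was 2.94-fold lower at 6 d and 2.18-fold lower at 3 d, and its copy AT3G15460 was 2.32-fold lower at 6 d. NAP57 (AT3G57150), the pseudouridine synthase dyskerin, was 1.74-fold lower at 3 d, and AT5G15550, a homologue of WDR12, was 1.66-fold lower. The 3 that rose at 6 d were AT2G27200 (1.51-fold) and AT4G31420 (1.27-fold), homologues of the late factors Lsg1 and Rei1, and NUC-L2 (AT3G18610, 1.44-fold). No test compared this list with the 60S genes.

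Of 11 translation elongation factor genes, 1 was higher and 3 lower at 6 d, where 26.7% of all genes were higher and 26.7% lower, so the share of lower genes was near that of all genes. The median was -0.39. At 3 d 0 were called, where 13.1% of all genes were, with a median of -0.24. AT1G07930, an eEF1A gene, was 2.91-fold lower at 6 d, AT1G09640, a subunit of eEF1B, 2.39-fold lower, and LOS1 (AT1G56070), eEF2, 1.54-fold lower. AT5G19510, another eEF1B subunit, was 1.44-fold higher.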

How the data were processed

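Total RNA of isolated embryos was amplified as antisense RNA and coupled to dyes, per the labels' protocols. For 3 d the deposited files hold 1 intensity per spot and cross; their values were already background-corrected and balanced between channels, as values never below 0 and array medians of the log2 ratio between -0.0126 and 0.00476 show. For 6 d the deposited table of log2 ratios was used. Its rows were matched to spots by equal 3 d ratios (24661 of 24661 rows with at least 2 values at 3 d, within 1e-06), which showed that its log2 values have the bdl cross on top; the 6 d columns were taken to run the same way, unchecked. For image software, normalization, slides and scan dates, details were not given in these sources. Replicates at the 2 stages share their numbers. The fit between stages was planned with no replicate block, and a fit with the block was the alternative. Same-numbered arrays correlated between -0.077 and -0.043.

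Each locus took its brightest 3 d probe. For 3 d, probes above the 95th percentile of blank spots in at least one channel, on 2 arrays or more, were tested. Each fit needed values on 3 arrays or more that covered both orientations of the dyes. Log2 ratios were fitted with a dye term in limma 3.58.1 (R 4.3.3), tested on simulated data, and adjusted by the Benjamini-Hochberg method over all genes. Copies of a protein were paired by the protein that the description names. Gene names came from the descriptions and the RefSeq table (TAIR10.1), which held all 147 loci. The text names the stalk genes, genes with known mutants, the largest 8 called changes in each direction at a stage and between stages, the 8 widest and 4 closest copy pairs of a stage, loci with no named 60S protein, and the 3 largest called changes of the assembly and elongation lists. Genes of 2 proteins are not reported singly here. Members, lists and tests were chosen with earlier results of these data known. Figures were drawn with matplotlib 3.10.9 in Python 3.11.15. Values after ± are the fits' standard errors (SE). The number of arrays limits the precision. Blank spots leaned toward the bdl cross on replicates 1 and 4 of 3 d and away from it on 2 and 3, which crosses the labelled dyes; a dye term following them was an added alternative.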

Additional observations from a re-analysis of the deposited data

Results flagged for a closer look

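In 5 of 108 groups of 4 arrays, 1 array lay far from the other 3 by Dixon's test, where chance gives about 1 in 20. At 6 d these were replicate 4 of RPL23aB at -1.73 (the others between -0.50 and -0.32), replicate 3 of RPP1B at -0.962 (1.46 to 1.82) and replicate 4 of RPP3A at -0.708 (1.71 to 1.96). At 3 d they were replicate 1 of RPL19A at 0.0685 (-0.07 to -0.05) and replicate 4 of RPL15A at -0.335 (-0.66 to -0.63). One of the other probes of RPP1B read 1.40, 1.13, 1.37 and 1.52 at 6 d, so replicate 3 was not low there. The remaining probe read 1.12, 1.10, -0.44 and 0.72, with replicate 3 again the lowest.

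The difference between the stages passed the limma test for 38 of the 55 60S genes the naming rule picked. It was below 0, with a lower ratio at 6 d than at 3 d, for 9 genes. These were AT3G49460 at -1.64, RPL3B at -1.18, RPL3A at -1.01, RPL13aD at -0.775, RPL13aA at -0.593, RPL15A at -0.564, RPL8A at -0.501, AT2G44860 at -0.395 and RPL4D at -0.381. RPL3A was at the signal ceiling on all 4 arrays of 3 d.

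It was above 0 for 29 genes. Under 1 lay RPL35aD at 0.345, AT5G24510 at 0.397, RPL27aC at 0.45, RPL23aA at 0.577, RPL24A at 0.588, RPL11D at 0.639, RPL28A at 0.79, AT1G25260 at 0.884 and RPP2E at 0.953. Between 1 and 2 lay AT1G06380 at 1.02, RPP0A at 1.03, RPL24B at 1.08, RPL23B at 1.11, RPP1C at 1.16, RPP2A at 1.19, RPP2B at 1.72, RPP2D at 1.76 and RPP3A at 1.94. Above 2 lay RPL36aB at 2.38, RPP2C at 2.61, RPL41E at 2.64, RPL35aA at 2.65, RPL39B at 2.65, RPL35aC at 2.7, RPL41C at 2.77, RPL39C at 2.89, RPL41G at 2.99, AT5G40080 at 3.19 and AT5G39800 at 3.51. All genes above 2 other than RPP2C, AT5G40080 and AT5G39800 encode proteins numbered L35a or higher.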

How the results depend on the processing

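At 6 d, taking out the span trend turned the 60S median to -0.050, gave 21 lower genes for 40S proteins, 7 higher organelle genes and 0 higher elongation factors, and turned RPL27aC to -0.26 (adjusted p = 0.043). For the stage difference it gave 22 lower 60S genes and a median of 0.42, and turned RPL27aC to -0.090 and AT5G24510 to -0.14. Without the brightest 60S genes the medians were 0.45 at 6 d, -0.44 at 3 d and 0.93 between stages. RPP1A was 1.47 at 6 d as the mean over probes. At 3 d the number of lower genes among 60S, 40S, organelle and assembly genes was 26, 17, 3 and 7 with no filter, and 84, 56, 15 and 19 with an intensity trend. It was 78, 46, 10 and 20 with no dye term, and elongation factors then had 1. With both channels above blank spots it was 81 for 60S, 50 for 40S, 12 for organelle genes and 2 for elongation factors. A dye term following the blank spots gave 76 for 60S, 46 for 40S and 9 for organelle genes, an offset of 50 gave 8 organelle genes, and the mean over probes gave 2. Higher 40S genes numbered 1 with both channels above blank spots, no dye term or an intensity trend, and 2 with the blank-spot term; higher organelle genes numbered 1 with both channels above blank spots or the blank-spot term, and 4 with an intensity trend. At 6 d, no dye term or an intensity trend gave 5 lower elongation factors. Leaving out 1 array, with or without a dye term, gave 14 to 27 lower 60S genes at 6 d, with 14 without replicate 2 and 15 without replicate 3 under the dye term. Other lists ranged at 6 d from 30 to 49 higher (30 to 41 under the dye term) and 8 to 12 lower for 40S genes, 8 to 15 higher and 5 to 9 lower for organelle genes, 0 to 3 higher and 13 to 20 lower for assembly factors, and 0 to 1 higher and 2 to 4 lower for elongation factors. At 3 d leaving out any 1 array gave 0 called genes in each list under the dye term. With no dye term, leaving out replicates 1, 2, 3 and 4 in turn gave 37, 23, 18 and 63 lower 60S genes, 18, 13, 10 and 33 lower 40S genes, 5, 2, 1 and 7 lower organelle genes and 7, 7, 4 and 14 lower assembly factors. Higher genes there numbered 1 or, without replicate 3, 0 among 60S genes, and 0 to 1 among organelle genes. With 1 replicate number left out at both stages, 0 copy pairs passed after adjustment, since the 6 arrays then left give no p below 0.03125. With 4 arrays less 1, the dye-term fit at 3 d keeps 1 residual degree of freedom. The replicate block gave 74 higher and 12 lower 60S genes between stages, and same-numbered arrays correlated between -0.077 and -0.043 with none best matched to its own number. Of 2238 alternative values of named 60S genes, 1952 kept their side of the threshold without a called change of sign (50 of them changed sign but were not called in either fit), 196 lost the call, 86 gained it and 4 reversed. Pairing copies by RefSeq names was void, since 15 genes (10.3%) had one. The cause of these changes was not tested. The ceiling limits 3 d ratios of the brightest genes, and whether one also limits their 6 d ratios could not be checked without 6 d signals.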
